A study of Mus musculus with 16 samples.

Results

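Bile acids are made from cholesterol in the hepatocyte by a classical and an alternative route. The genes described here are 10 enzymes of the alternative route, of the shared ring and side-chain steps, and of conjugation: *Cyp27a1*, *Cyp7b1*, *Cyp39a1*, *Cyp2c70*, *Akr1d1*, *Hsd3b7*, *Slc27a5*, *Baat*, *Amacr* and *Acox2*. They were chosen by name for their place in the pathway, out of the 52143 genes of the table, by a rule that uses no measured value. The choice was nevertheless made with earlier results of these data known. The shares of all genes given beside the counts below are therefore a description and not a test of the set. All 10 passed the filter on low counts. The 16 liver RNA libraries, 4 per group, came from male C57BL6/J mice, which were 6 weeks old at the start and were kept on their diet for 12 weeks. Chow mice ate a chow diet and were injected with saline. Chow/FGFR4 KD mice ate chow and received an *Fgfr4* siRNA at 3 mg/kg. HFD mice ate a high-fat diet with saline, and HFD/FGFR4 KD mice ate the high-fat diet with the siRNA. Injections were given every 2 weeks in all groups. The siRNA carried GalNAc, a sugar that hepatocytes take up, so the knockdown (KD) was aimed at hepatocytes. Each library was made from 1 mouse, as the study describes its heatmaps, so the spread within a group is between mice. Control mice got saline and no control siRNA, so that a response to siRNA in general and a response to the loss of FGFR4 cannot be told apart.

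In the classical route CYP7A1 adds a hydroxyl group to cholesterol at its 7α position, and this step limits the rate. The alternative route begins with CYP27A1, which oxidizes the sterol side chain in mitochondria, and continues with the oxysterol 7α-hydroxylase CYP7B1. CYP39A1 is another oxysterol 7α-hydroxylase. HSD3B7 and AKR1D1 then modify the steroid ring in both routes. Side-chain shortening in peroxisomes needs AMACR and ACOX2, and SLC27A5 and BAAT join bile acids to coenzyme A and to taurine or glycine. CYP2C70 makes muricholic acids, which mice have and humans lack. FGFR4 is the hepatocyte receptor for the intestinal hormone FGF15, and its signal is known to repress *Cyp7a1*.

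Each level is given in CPM, the counts of a gene relative to the total of its library after TMM scaling. Total counts per library ran from 3445949 to 5976449, and the 10 enzymes took 0.200% to 0.289% of them. The siRNA target had 21.8 to 36.3 CPM in the 8 saline libraries and 2.43 to 6.17 CPM in the 8 KD libraries, without overlap. The libraries expressed the hepatocyte markers, with a summed level of 59170 to 79450 CPM over 6 markers. Library HFD/FGFR4 KD 1 stood apart. The gene *Gm42418* took 22.3% of its counts, against 13.7% to 16.2% in the other 3 libraries of its group. Over all libraries this share ran from 11.1% to 22.7%. The reason for the difference was not tested. An axis was drawn from 0 for the mean of Chow to 1 for the mean of HFD. It covers the genes with an adjusted p under 0.05 between Chow and HFD in the test described below, the 10 enzymes left out. These genes were picked from the same libraries that set the ends of the axis. Library HFD/FGFR4 KD 1 lay at 0.309, and the other 3 libraries of its group lay between 0.846 and 0.861. Results of the 10 enzymes that rest on library HFD/FGFR4 KD 1 are given with and without it.

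Per kilobase of the longest annotated transcript, the enzymes differed widely in the Chow livers. *Slc27a5* was the highest at 317 ± 12.6 CPM per kilobase (mean ± SD, n = 4). *Cyp2c70* had 274 ± 96.2, *Cyp27a1* had 192 ± 11.01, *Hsd3b7* had 166 ± 22.04 and *Cyp7b1* had 165 ± 67.2 CPM per kilobase. The ranges of these 5 enzymes overlapped from each one to the next, so their order is not settled. *Baat* followed with 121 ± 8.15, then *Acox2* with 62.2 ± 4.59, *Akr1d1* with 47.8 ± 5.76 and *Amacr* with 38.9 ± 3.02 CPM per kilobase. The ranges of *Akr1d1* and *Amacr* overlapped, and so did those of *Cyp7b1* and *Baat*. *Cyp39a1* was the lowest at 5.06 ± 1.41 CPM per kilobase. The transcript length used moves this order. With the mean length over annotated transcripts, *Hsd3b7* had 342 and *Cyp7b1* still 165 CPM per kilobase, and *Slc27a5* and *Cyp39a1* kept the ends of the order with 587 and 7.60.

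Promoters are printed for the enzymes with a RefSeq promoter whose levels passed a test described below. *Cyp2c70* fell with HFD, and *Akr1d1* and *Cyp27a1* were the enzymes called higher with KD on HFD. Of the 10 enzymes, 5 had a promoter in the RefSeq table (GRCm38.p6), and the 250 bases before the start are shown. They are chr19:40187287-40187536 on the minus strand, chr6:37529923-37530172 on the plus strand and chr1:74713285-74713534 on the plus strand. Capitals mark the matches to the motifs listed next. Distances are counted from the RefSeq start, and the annotated *Cyp2c70* gene begins slightly upstream of it.
Cyp2c70: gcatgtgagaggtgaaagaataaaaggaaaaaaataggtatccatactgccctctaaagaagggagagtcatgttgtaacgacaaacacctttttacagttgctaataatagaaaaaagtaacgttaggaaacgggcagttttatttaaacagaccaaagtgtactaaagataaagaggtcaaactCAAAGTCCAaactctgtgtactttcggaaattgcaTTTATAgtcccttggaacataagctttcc
Akr1d1: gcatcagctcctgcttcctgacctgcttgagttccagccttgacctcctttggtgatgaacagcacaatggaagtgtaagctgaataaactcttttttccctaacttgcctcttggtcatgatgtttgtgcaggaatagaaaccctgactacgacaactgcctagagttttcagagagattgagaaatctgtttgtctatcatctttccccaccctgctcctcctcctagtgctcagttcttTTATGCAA
Cyp27a1: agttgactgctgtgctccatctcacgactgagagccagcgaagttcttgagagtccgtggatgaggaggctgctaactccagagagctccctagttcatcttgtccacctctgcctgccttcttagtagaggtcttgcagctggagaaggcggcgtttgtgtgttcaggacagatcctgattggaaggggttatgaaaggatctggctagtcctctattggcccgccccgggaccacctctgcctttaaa
The search covered both strands of these bases and the 50 after the start, with 9 motifs. *Cyp2c70* held the core of an HNF4 site (CAAAGNCCA) 64 bases before the start, a motif present in 1.98% of the 32851 promoters of the table. It also held a TATA box (TATAAA, 13.6% of promoters) on the reverse strand 29 bases before the start. *Akr1d1* held a C/EBP site (TTGCNNAA, 10.8%) in the last 8 bases before the start, and the sterol element of SREBP (TCACCCCA, 1.56%) 41 bases after it, outside the stretch shown. *Cyp27a1* had no match. The remaining motifs were an HNF1 site (0.0609%), a D-box (TTANGTAA, 2.32%), the STAT5 element (TTCNNNGAA, 8.30%), an E-box (CACGTG, 7.15%) and the inverted repeat of FXR (0.0183%). None of these was found in the 3 promoters. A match is a description of the letters and not a bound site.

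On HFD the saline-injected mice had lower levels of 6 of the 10 enzymes and higher levels of none. The call follows the thresholds of the study in limma-voom, an unadjusted p under 0.05 together with an adjusted p (Benjamini-Hochberg) under 0.25. Of all 11324 genes tested, 26% were called in this comparison, 13.3% higher and 12.7% lower. The 6 enzymes called were *Cyp7b1*, *Cyp2c70*, *Cyp27a1*, *Baat*, *Amacr* and *Slc27a5*, and in each of them every HFD library lay below every Chow library. Such a separation in either direction was seen in 16.1% of all genes. At an adjusted p under 0.05, 4 of the 10 enzymes were lower, against 9.20% of all genes in either direction. The median log2 fold change was -0.256 over the 10 enzymes and 0.007 over all genes.

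**Figure D1:**
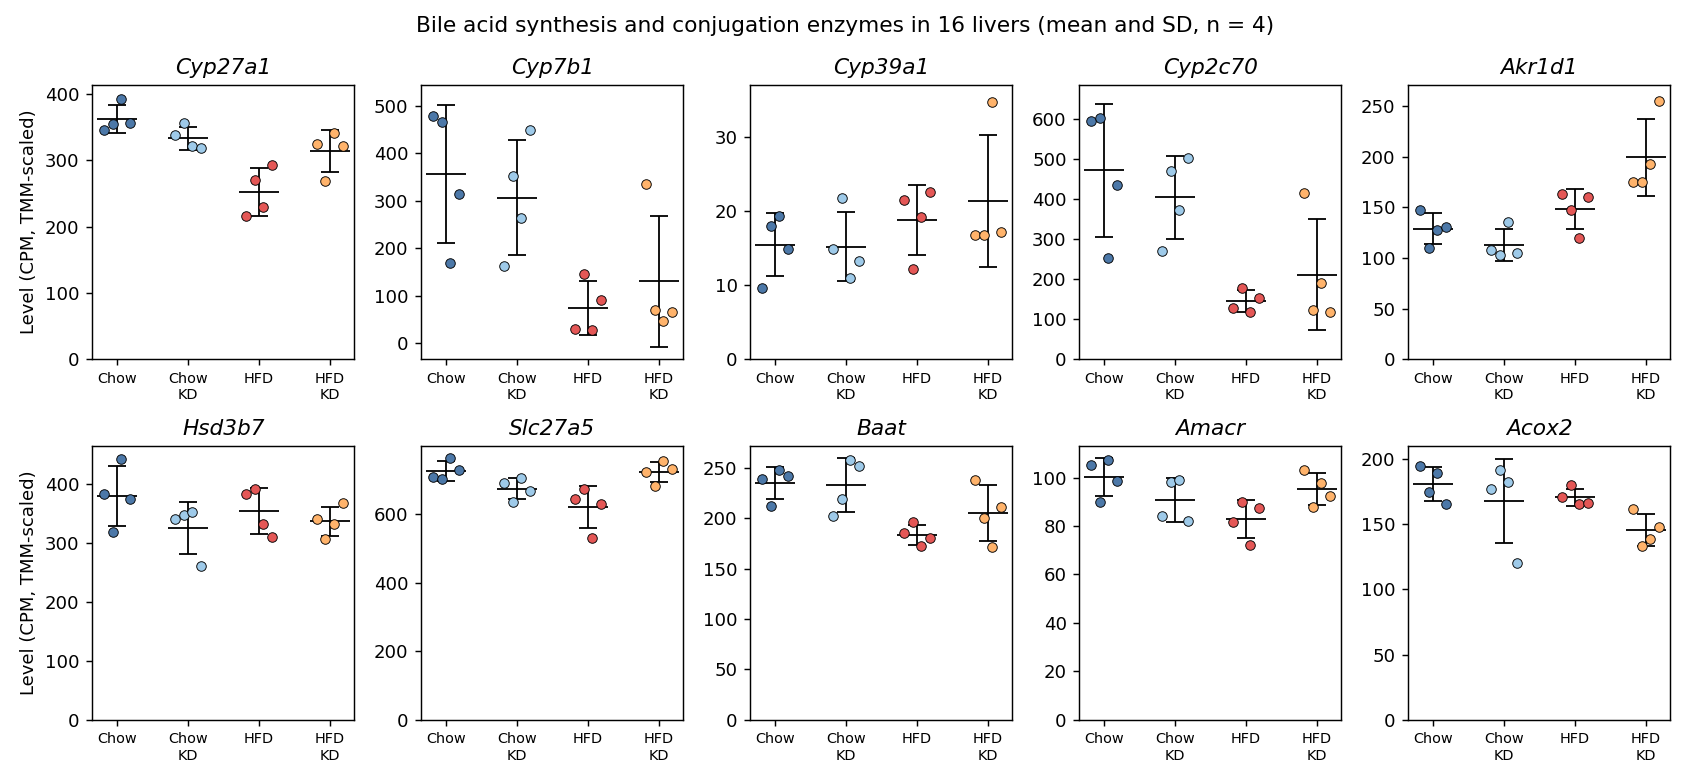
Levels (CPM, linear axes from 0, apart from *Cyp7b1*, whose axis starts just below 0) of the 10 enzymes in each library of the 4 groups. Points are libraries in the order of their replicate number, and bars are mean and SD (n = 4). *Cyp7b1* and *Cyp2c70* are low in the HFD livers and high in library HFD/FGFR4 KD 1 (336 and 414 CPM), and *Akr1d1* is highest in HFD/FGFR4 KD.

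*Cyp27a1* (ENSMUSG00000026170, chr1:74713574-74737892 in GRCm38, plus strand), which opens the alternative route, had 346, 356, 393 and 356 CPM in Chow and 216, 270.4, 229 and 293 CPM in HFD. The lowest Chow library was above the highest HFD library. The log2 fold change was -0.53 (SE 0.0988, adjusted p 0.00414). When libraries were scaled by their totals alone, it was -0.25 and no longer called, since its unadjusted p was over 0.05 (adjusted p 0.143). The median over all genes was itself 0.287 under library totals.

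The oxysterol 7α-hydroxylase *Cyp7b1* (ENSMUSG00000039519, chr3:18071950-18243338, minus strand) had the widest range of the 10, 17.2-fold from the lowest to the highest library. Its level was 478, 466, 169.6 and 314 CPM in Chow and 29.8, 146, 27.8 and 91.3 CPM in HFD. The means were 357 ± 146 and 73.8 ± 56.6 CPM (SD, n = 4). Chow and HFD did not overlap, although the lowest Chow library and the highest HFD library were close. The log2 fold change was -2.53 (SE 0.592, adjusted p 0.0139), and fits without 1 library gave -3.00 to -2.18. *Cyp39a1* (ENSMUSG00000023963, chr17:43667425-43751431, plus strand), the other oxysterol 7α-hydroxylase, was not called. It had 9.64 to 19.3 CPM in Chow and 12.1 to 22.6 CPM in HFD, so the groups overlapped. Its log2 fold change was 0.30 (95% interval -0.31 to 0.90, adjusted p 0.552), resting on 36 to 209 counts per library.

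*Cyp2c70* (ENSMUSG00000060613, chr19:40153353-40187333, minus strand), the muricholic acid enzyme whose promoter is shown above, was lower on HFD as well. It had 594, 603, 252 and 435 CPM in Chow and 127, 178, 117 and 153 CPM in HFD, without overlap. The log2 fold change was -1.65 (SE 0.346, adjusted p 0.00777). Within Chow, library 3 was the lowest for both enzymes, and within Chow/FGFR4 KD the order of the 4 libraries was the same for both. *Cyp2c70* transcripts shared no 31-base word with another gene, so its counts are not mixed with those of other *Cyp2c* genes by shared sequence.

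Neither enzyme of the steroid ring was called. *Hsd3b7* (ENSMUSG00000042289, chr7:127800604-127803802, plus strand) had 318 to 442 CPM in Chow and 309 to 391 CPM in HFD. Its log2 fold change was -0.10 (95% interval -0.34 to 0.15, adjusted p 0.644). Its counts are uncertain, because 88.8% of its 31-base words occur in other annotated genes, mostly in Gm49388, which overlaps it and held 169.6 counts in all libraries together. A gene on the opposite strand, 9430064I24Rik, also overlaps it, and the strand setting of the counting is not given in the sources used here. *Akr1d1* (ENSMUSG00000038641, chr6:37530173-37568815, plus strand) had 148, 110.1, 127 and 131 CPM in Chow and 164, 148, 120.3 and 161 CPM in HFD. The groups overlapped, and the log2 fold change was 0.19 (95% interval -0.09 to 0.48, adjusted p 0.392). Without HFD 3, the lowest of the HFD libraries, it was 0.29 and was called with an adjusted p of 0.233. It was also called under library totals alone, at 0.48 (adjusted p 0.0559).

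Of the peroxisomal enzymes, *Amacr* (ENSMUSG00000022244, chr15:10981756-10996626, plus strand) had 90.0 to 107 CPM in Chow and 72.2 to 89.8 CPM in HFD, with a log2 fold change of -0.28 (SE 0.0932, adjusted p 0.0675). *Acox2* (ENSMUSG00000021751, chr14:8225511-8259353, minus strand) had 165 to 194 CPM in Chow and 166 to 179.8 CPM in HFD, and its log2 fold change was -0.08 (95% interval -0.33 to 0.17, adjusted p 0.701). Of the conjugating enzymes, *Baat* (ENSMUSG00000039653, chr4:49489422-49506557, minus strand) had 239, 212, 248 and 242 CPM in Chow and 185, 197, 173 and 181 CPM in HFD. All 4 HFD libraries lay lower, with a log2 fold change of -0.36 (SE 0.101, adjusted p 0.0370). *Slc27a5* (ENSMUSG00000030382, chr7:12988346-12998192, minus strand), the bile acid coenzyme A ligase, had 701 to 765 CPM in Chow and 532 to 673 CPM in HFD, with a log2 fold change of -0.23 (SE 0.0778, adjusted p 0.0729). With library totals alone *Baat* was at -0.08 (adjusted p 0.632), *Amacr* at 0.00 (adjusted p 0.999) and *Slc27a5* at 0.05 (adjusted p 0.768), and none of them was called. *Hsd3b7* and *Acox2* also turned positive, at 0.18 and 0.20. Relative to the shifted median of all genes, the median over the 10 enzymes was -0.263 under that scaling. In these bulk samples, fewer hepatocytes and less RNA per hepatocyte cannot be told apart.

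Other markers moved with HFD as well. Of 6 hepatocyte markers, *Apoa1*, *Cps1* and *Tat* were called lower, none was called higher and 3 were not called. The summed level of the 6 overlapped between the groups, with 63250 to 69490 CPM in Chow and 60700 to 72870 CPM in HFD. Most of that sum was *Alb*, with a mean of 46640 CPM in Chow and 50210 CPM in HFD, so the sum says little about the other markers. Of 8 macrophage markers 7 rose, and the summed level of all 8 was 52.7 to 61.3 CPM in Chow and 96.9 to 178.5 CPM in HFD. All 9 genes of a list that is higher in male than in female mouse liver fell, from a summed level of 5779 to 9665 CPM in Chow to 2419 to 4164 CPM in HFD. *Cyp7b1* is itself known as a male-biased gene of mouse liver. All 5 clock genes that peak with *Arntl* fell as well, with a median log2 fold change of -1.89, and of 8 clock genes that peak with *Dbp* and *Per* 6 rose. Of 7 stellate cell and fibroblast markers 4 rose, *Col1a1*, *Col1a2*, *Col3a1* and *Dcn*. The summed level of all 7 was 94.7 to 138 CPM in Chow and 159 to 304 CPM in HFD. The part of cell makeup, of sex-biased expression and of the clock in the changes of the 10 enzymes was not tested.

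**Figure D2:**
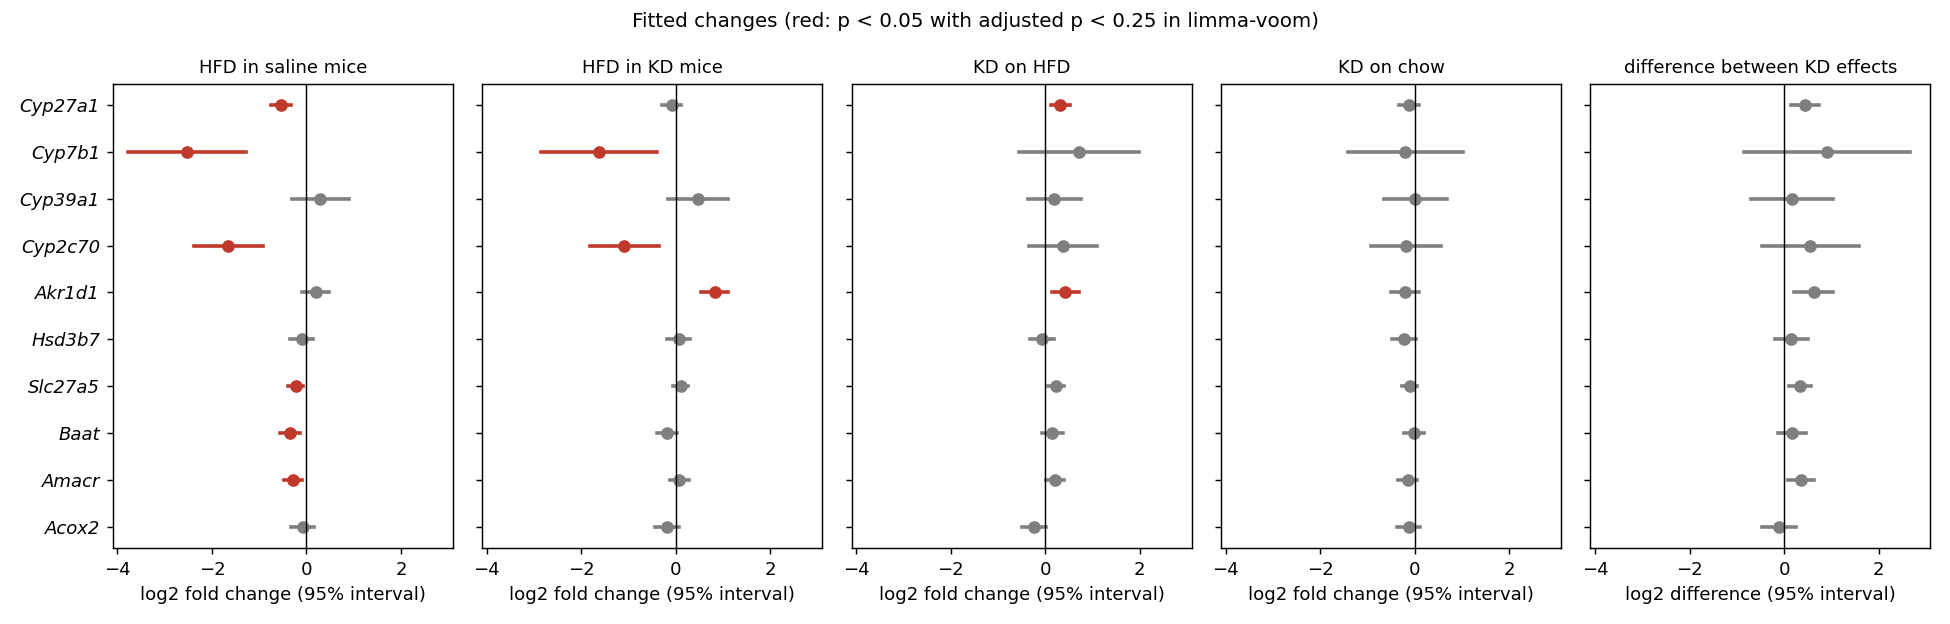
Fitted log2 fold changes of the 10 enzymes with 95% intervals in the 4 comparisons of groups and in the difference between the KD effects. Red marks genes called in limma-voom. In saline-injected mice 6 enzymes were called lower on HFD (2 under library totals alone), and with KD on HFD *Cyp27a1* and *Akr1d1* were called.

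FGFR4 KD on HFD was compared with HFD to ask how hepatic FGFR4 bears on these enzymes in mice on the high-fat diet. Called higher were 2 of the 10 enzymes, *Cyp27a1* and *Akr1d1*, and none was called lower. Of all genes tested, 3.14% were called in this comparison, 1.5% higher and 1.64% lower. No enzyme passed an adjusted p of 0.05, against 0.274% of all genes. At an unadjusted p under 0.05 the count was 4, with *Slc27a5* and *Amacr* added, against 11% of all genes. HFD libraries are shared with the comparison against Chow above, so a low value in an HFD library enters both. Of the *Arntl*-group clock genes 3 of 5 and of the male-biased genes 2 of 9 were also called higher here, and of the 8 macrophage markers none was called. The summed level of the male-biased genes was 8083 CPM in HFD/FGFR4 KD 1 and 2813 to 4129 CPM in the rest of its group. Calls of these lists are not given without that library. Called lower were *Ttr*, 1 of the 6 hepatocyte markers (log2 fold change -0.51, adjusted p 0.0790), and the adipocyte marker *Cfd*. The log2 fold change was positive in 5 of the 6 hepatocyte markers, with a median of 0.178 over the 6, and none was called higher. *Dbp* and *Per2* were also called lower, 2 of the 8 clock genes of their group, of which 6 had negative and 2 positive changes. Of 5 adipocyte markers *Cfd* was the only 1 that passed the filter. The mean of each of the others was at most 0.111 CPM in both groups. The part of these markers and clock genes in the result was not tested.

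*Akr1d1*, the 5β-reductase of the steroid ring, had 175, 175, 193 and 256 CPM in HFD/FGFR4 KD, against 164, 148, 120.3 and 161 CPM in HFD. All 4 KD libraries lay above all HFD libraries. The means were 200 ± 38.1 and 148 ± 19.8 CPM (SD, n = 4), a log2 fold change of 0.42 (SE 0.135, adjusted p 0.228). The promoter printed above carries the matches given there. *Cyp27a1* had 324, 269, 342 and 321 CPM in HFD/FGFR4 KD, and 3 of these 4 libraries lay above all HFD libraries. Its log2 fold change was 0.32 (SE 0.0987, adjusted p 0.2115).

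Both calls were near the threshold. *Akr1d1* was no longer called without HFD 1 (adjusted p 0.280), HFD 3 (0.503), HFD 4 (0.259), HFD/FGFR4 KD 1 (0.285), HFD/FGFR4 KD 3 (0.383) or HFD/FGFR4 KD 4 (0.474). *Cyp27a1* was no longer called without HFD 1 (adjusted p 0.443), HFD 3 (0.476), HFD/FGFR4 KD 1 (0.415), HFD/FGFR4 KD 3 (0.435) or HFD/FGFR4 KD 4 (0.409). The fold changes stayed positive in all these fits, from 0.30 to 0.48 for *Akr1d1* and from 0.25 to 0.40 for *Cyp27a1*. edgeR's quasi-likelihood test called neither (adjusted p 0.269 for *Akr1d1* and 0.273 for *Cyp27a1*), and DESeq2 called both (0.151 and 0.118). Neither was called under library totals alone (0.552 and 0.562), with a replicate block (0.268 and 0.2915) or with only the groups compared (0.315 and 0.360).

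*Slc27a5* had 723, 683, 754 and 732 CPM in HFD/FGFR4 KD and 645, 673, 532 and 630.2 CPM in HFD, again without overlap. Its log2 fold change of 0.23 (SE 0.0778, adjusted p 0.276) missed the threshold, and DESeq2 gave an adjusted p of 0.142. Without HFD 2 the adjusted p was 0.167, and without HFD/FGFR4 KD 2 it was 0.238. *Amacr* had 87.9 to 103 CPM against 72.2 to 89.8 CPM, a log2 fold change of 0.21 (SE 0.0932, adjusted p 0.419). *Baat* had 172 to 238 CPM against 173 to 197 CPM, and its change of 0.15 was within the spread (95% interval -0.06 to 0.37, adjusted p 0.638). *Acox2* pointed the other way. It had 162, 133, 139 and 148 CPM against 170.5, 179.8, 166 and 166 CPM, with every KD library lower, but its log2 fold change of -0.23 (SE 0.118, adjusted p 0.496) was not called. Thus 3 of the 10 enzymes did not overlap between the groups, against 6.49% of all genes. *Hsd3b7* gave -0.07 (95% interval -0.32 to 0.18, adjusted p 0.878) and *Cyp39a1* gave 0.19 (95% interval -0.37 to 0.75, adjusted p 0.848).

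The pair with the largest response to HFD depended on 1 library under KD. *Cyp7b1* had 336 CPM in HFD/FGFR4 KD 1 and 71.3, 48.15 and 65.55 CPM in the other 3 libraries. *Cyp2c70* had 414 CPM in HFD/FGFR4 KD 1 and 124, 189 and 117 CPM in the others. The log2 fold change with KD on HFD was 0.71 (95% interval -0.56 to 1.98, adjusted p 0.733) for *Cyp7b1* and 0.37 (95% interval -0.35 to 1.10, adjusted p 0.751) for *Cyp2c70*. Without HFD/FGFR4 KD 1 it was 0.09 for *Cyp7b1* and -0.01 for *Cyp2c70*. The summed level of the 9 male-biased genes was 8083 CPM in that library and 2813 to 4129 CPM in the other 3 of its group.

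**Figure D3:**
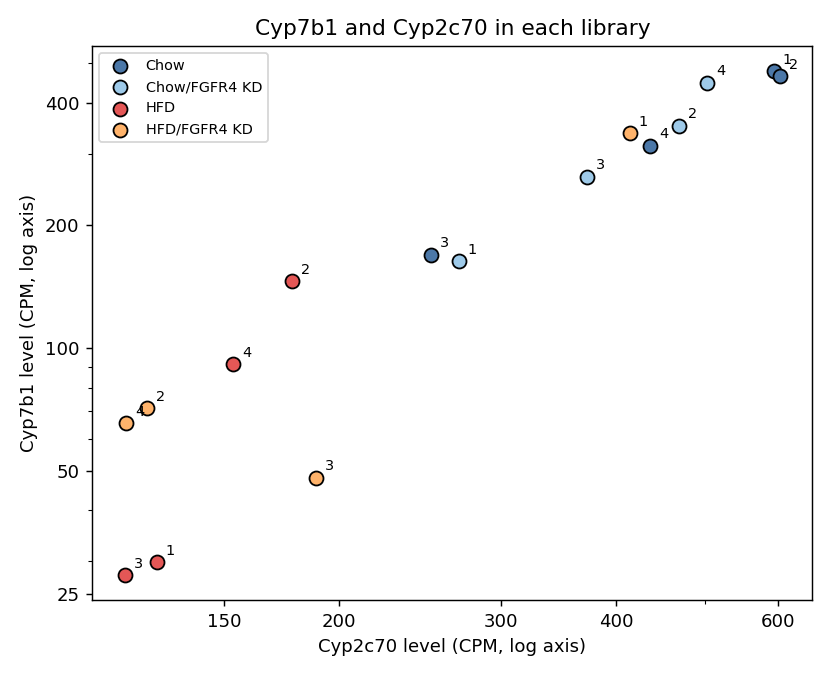
Levels of *Cyp7b1* and *Cyp2c70* (CPM, both axes logarithmic) in the 16 libraries, coloured by group and numbered by replicate. Library HFD/FGFR4 KD 1 lies among the chow-fed libraries at 414 CPM of *Cyp2c70* and 336 CPM of *Cyp7b1*, and the other 3 libraries of its group lie among the HFD libraries.

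On chow, none of the 10 enzymes was called with FGFR4 KD. A single gene, *Fgfr4*, or 0.00883% of all genes, was called by limma-voom in this comparison. No enzyme reached an unadjusted p under 0.05, against 4.58% of all genes, and none separated the groups, against 2.52%. The tests of edgeR and DESeq2 also called none of the 10. The log2 fold changes ran from -0.22 for *Hsd3b7* to 0.02 for *Cyp39a1*, and 9 of 10 were negative. *Akr1d1* had 108, 103, 136 and 104 CPM with KD, against 110.1 to 148 CPM without. Its log2 fold change was -0.20 (95% interval -0.49 to 0.09, adjusted p 0.976). *Cyp27a1* had 338, 356, 321 and 319 CPM with KD, against 346 to 393 CPM without, a log2 fold change of -0.12 (95% interval -0.33 to 0.09, adjusted p 0.976). The 95% intervals were wide for *Cyp7b1*, from -1.42 to 1.02, and for *Cyp2c70*, from -0.91 to 0.55, so that changes within these bounds remain possible on chow. *Slc27a5* (-0.10, adjusted p 0.976), *Amacr* (-0.15, adjusted p 0.976), *Baat* (-0.02, adjusted p 0.988) and *Acox2* (-0.13, adjusted p 0.976) had intervals that included 0. Library Chow/FGFR4 KD 4 was low for *Acox2* (120.2 CPM, the others 177 to 192) and for *Hsd3b7* (260.4 CPM, the others 339.5 to 352).

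Whether the effect of KD differed between the diets was tested directly, as the change with KD on HFD less the change with KD on chow. By limma-voom none of the 10 enzymes was called, against 0.0353% of all genes. At an unadjusted p under 0.05 there were 4 enzymes, against 6.76% of all genes. They were *Akr1d1* with a difference of 0.62 (SE 0.193, adjusted p 0.571), *Cyp27a1* with 0.44 (SE 0.140, adjusted p 0.571), *Slc27a5* with 0.33 (SE 0.110, adjusted p 0.575) and *Amacr* with 0.36 (SE 0.133, adjusted p 0.648). edgeR called none, and DESeq2 called *Akr1d1*, *Cyp27a1* and *Slc27a5* (adjusted p 0.187, 0.187 and 0.169). The difference was positive in 9 of the 10 enzymes, with a median of 0.344, and the median over all genes was -0.003. *Acox2* was the exception at -0.11 (SE 0.167, adjusted p 0.936). Without HFD/FGFR4 KD 1 the difference went from 0.91 to 0.29 for *Cyp7b1* and from 0.56 to 0.17 for *Cyp2c70*. Under library totals alone the median was 0.221 over the 10 enzymes and -0.132 over all genes.

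HFD was also compared with chow among the KD mice. Here 3 of the 10 enzymes were called, with 1 higher and 2 lower. Of all genes 20.2% were called, 10.1% higher and 10.1% lower. The stricter threshold, an adjusted p under 0.05, kept 1 enzyme, *Akr1d1*, against 3.1% of all genes, and 1 enzyme separated the groups, against 11.5%. *Akr1d1* rose from 113 ± 15.6 to 200 ± 38.1 CPM (SD, n = 4), a log2 fold change of 0.82 (SE 0.137, adjusted p 0.00520), and all 4 HFD/FGFR4 KD libraries lay above all Chow/FGFR4 KD libraries. It was called in all 10 other settings and in all 8 fits without 1 library. *Cyp2c70* fell from 403 ± 105 to 211 ± 139 CPM, a log2 fold change of -1.10 (SE 0.345, adjusted p 0.0917), and *Cyp7b1* from 307 ± 121.5 to 130.3 ± 138 CPM, a log2 fold change of -1.63 (SE 0.584, adjusted p 0.134). The groups overlapped for both enzymes through HFD/FGFR4 KD 1. Without that library the log2 fold change was -1.48 for *Cyp2c70* (adjusted p 0.00873) and -2.25 for *Cyp7b1* (adjusted p 0.0232). The call of *Cyp7b1* was lost without Chow/FGFR4 KD 4 (adjusted p 0.264), HFD/FGFR4 KD 2 (0.255), HFD/FGFR4 KD 3 (0.302) or HFD/FGFR4 KD 4 (0.283), and in edgeR (0.256) and DESeq2 (0.301).

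The remaining enzymes were not called among the KD mice. *Cyp27a1* had a mean of 334 CPM in Chow/FGFR4 KD and 314 CPM in HFD/FGFR4 KD, a log2 fold change of -0.09 (95% interval -0.30 to 0.12, adjusted p 0.647). *Baat* was at -0.19 (adjusted p 0.322), and it was called without Chow/FGFR4 KD 1 (adjusted p 0.198) and without HFD/FGFR4 KD 1 (0.142). *Acox2* was at -0.19 (adjusted p 0.396), and it was called without Chow/FGFR4 KD 4 (adjusted p 0.0536). *Slc27a5* was at 0.10 (adjusted p 0.501), *Amacr* at 0.07 (adjusted p 0.705), *Hsd3b7* at 0.06 (adjusted p 0.828) and *Cyp39a1* at 0.47 (adjusted p 0.402).

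The other genes of bile acid synthesis were read from a list of 21 synthesis enzymes, electron donors and regulators, of which 18 passed the filter. With KD on HFD 1 of the 18 rose and 3 fell, against 3.14% of all genes called in either direction. *Cyp7a1*, which sets the rate of the classical route, had 34.9, 41.7, 29.9 and 59.2 CPM in HFD and 208, 184, 172 and 334 CPM in HFD/FGFR4 KD. All KD libraries were above all HFD libraries, and its log2 fold change was 2.45 (SE 0.326, adjusted p 0.00276). The siRNA target *Fgfr4* fell by 2.78 on the log2 scale (adjusted p 9.06e-05). The peroxisomal enzyme *Hsd17b4*, which acts after ACOX2 in the shortening of the side chain, fell from 521 to 408 CPM, a log2 fold change of -0.35 (adjusted p 0.0790), a call lost under library totals alone (adjusted p 0.313). *Slc27a2*, a coenzyme A ligase, was at -0.44 (adjusted p 0.190), and its call was lost under library totals alone (0.271) and in 6 of 8 fits without 1 library, those without HFD 2, 3 or 4 or HFD/FGFR4 KD 1, 3 or 4 (0.2525 to 0.398). *Cyp8b1*, the 12α-hydroxylase that leads to cholic acid, was at 0.07 (adjusted p 0.937).

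With HFD in saline-injected mice 2 of the 18 rose and 1 fell, against 26% of all genes called. *Hsd17b4* rose with a log2 fold change of 0.30 (adjusted p 0.0260) and *Acnat2* with 1.20 (adjusted p 0.0127), although 37.8% of the 31-base words of *Acnat2* occur in other genes, mainly in *Acnat1*. *Hnf4a*, which encodes the hepatocyte nuclear receptor whose motif was searched above, fell with a log2 fold change of -0.44 (adjusted p 0.108), a call lost under library totals alone (adjusted p 0.413) and without Chow 1, Chow 2, HFD 1 or HFD 3 (0.224 to 0.289, with an unadjusted p over 0.05 where the adjusted p is under 0.25). *Cyp7a1* was at -0.28 (adjusted p 0.653) and *Cyp8b1* at 0.01 (adjusted p 0.975). On chow *Fgfr4* was the gene called with KD, by a log2 fold change of -2.62 (adjusted p 0.000223), and *Cyp7a1* was at -0.56 (adjusted p 0.976) and *Cyp8b1* at -0.58 (adjusted p 0.976). Among the KD mice 5 of the 18 were called higher on HFD and none lower, against 20.2% of all genes called. They were *Cyp7a1* with 2.72 (adjusted p 0.000755), the FGFR4 cofactor *Klb* with 0.56 (adjusted p 0.0577), *Cyp8b1* with 0.67 (adjusted p 0.111), *Nr1h4*, which encodes the bile acid receptor FXR, with 0.35 (adjusted p 0.121), and *Acnat2* with 0.59 (adjusted p 0.225). The call of *Acnat2* was lost in 6 of 10 other settings, edgeR (0.475) and DESeq2 (0.535) among them, and without Chow/FGFR4 KD 1 or 2 or HFD/FGFR4 KD 2, 3 or 4 (0.308 to 0.584). That of *Cyp8b1* was lost without Chow/FGFR4 KD 4 (0.270) or HFD/FGFR4 KD 4 (0.284), and that of *Nr1h4* without HFD/FGFR4 KD 2 (0.271) or 4 (0.265). In the difference between the KD effects *Cyp7a1* was the gene of the list called, at 3.01 (SE 0.495, adjusted p 0.0764). That call was lost without HFD 1 (adjusted p 0.256) and under library totals alone (0.276).

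The counts of *Cyp7a1* were set against those of the alternative enzymes within each library, a ratio that no scaling between libraries can move. For each *Cyp27a1* count there were 0.503 to 1.04 *Cyp7a1* counts in HFD/FGFR4 KD, with lowest library 3 and highest library 4. The range was 0.130 to 0.202 in HFD, 0.0580 to 0.192 in Chow and 0.0570 to 0.157 in Chow/FGFR4 KD. Every HFD/FGFR4 KD library lay above all 12 others. For each *Cyp7b1* count there were 2.58, 3.58 and 5.09 *Cyp7a1* counts in HFD/FGFR4 KD libraries 2, 3 and 4, and 0.617 in library 1. The ratio was 0.285 to 1.17 in HFD, 0.0442 to 0.378 in Chow and 0.0406 to 0.234 in Chow/FGFR4 KD. Library HFD/FGFR4 KD 1 overlapped HFD, and the other 3 libraries lay above it. These ratios compare counts and not molecules, since the genes differ in length, and they were not tested.

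**Figure D4:**
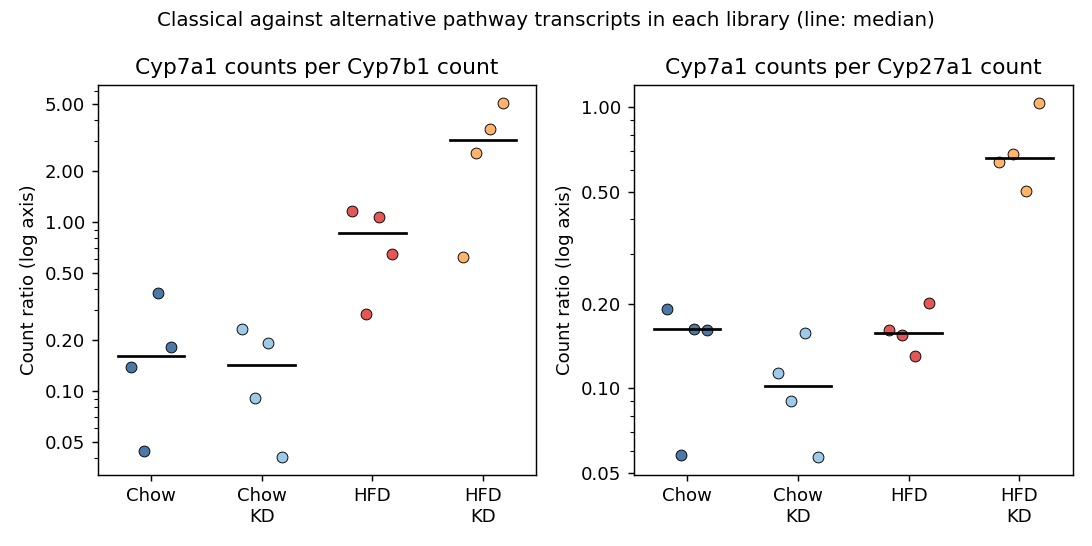
Counts of *Cyp7a1* for each count of *Cyp7b1* (left) and of *Cyp27a1* (right) in each library, on logarithmic axes, with the median of each group as a line. In HFD/FGFR4 KD the ratio to *Cyp27a1* was 0.503 to 1.04, above every library of the other groups, and the ratio to *Cyp7b1* was 0.617 in library 1 and at least 2.58 in the others.

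*Cyp7b1* and *Cyp2c70* varied most over the 16 libraries, with an SD of log2 CPM of 1.40 and 0.884, and the other tested genes most like them were found from the root mean square distance between profiles centred on each gene's mean. Closest to *Cyp7b1* were *Mup16* (distance 0.349 on the log2 scale), one of the near-identical major urinary protein genes, whose counts are therefore uncertain, *C8b* (0.429), which encodes a complement component, and *Egfr* (0.480), which encodes the EGF receptor. Without HFD/FGFR4 KD 1 the closest 3 were again these genes, with 0.292, 0.415 and 0.496. With HFD in saline-injected mice their log2 fold changes were -2.19, -2.29 and -1.85. Closest to *Cyp2c70* were *C6* (0.359), another complement component, *Dpy19l3* (0.360) and *Ugt2b1* (0.361), which encodes a glucuronosyltransferase. Without HFD/FGFR4 KD 1, *C6* gave way to *Rpp40* (0.353). *C6* is also on the list of male-biased genes. Mean levels of the 3 genes nearest to *Cyp2c70* were 201, 17 and 365 CPM, and the likeness is a description over libraries that share the diet groups.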

How the data were processed

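Liver RNA-seq libraries of 4 groups, 16 in all, were used. The authors trimmed reads with fastp, pseudoaligned them with kallisto (GRCm38 in the submitters' notes) and summed transcripts to genes with tximport, and they deposited estimated counts, which need not be whole. The transcriptome release and the tool versions are not given in the sources used here, and the labels and the methods of the study name different library kits. The low-count filter stated by the study (genes under 1 CPM in more than 4 libraries removed) was applied here to all 16 libraries and left 11324. The study reports a larger number of identified liver genes, so the 2 gene sets differ. TMM scaling (edgeR 4.0.16) and limma-voom (limma 3.58.1, R 4.3.3) were fitted to all 16 libraries with a mean per group, and p-values were Benjamini-Hochberg adjusted over all genes. The pipeline was tested on simulated data. Other settings were DESeq2 1.42.0 on rounded counts, the quasi-likelihood test of edgeR, other filters and scalings, library quality weights, a replicate block and leaving out each library. Total counts of 3445949 to 5976449 set the precision. The 10 enzymes and the gene lists were chosen with earlier results of these data known. All 10 enzymes, *Fgfr4*, *Cyp7a1* and *Cyp8b1* are named, and at most 4 other called genes of the pathway list per comparison, by smallest p, beside the 3 genes closest in profile to each of the 2 most variable enzymes and the markers a result turns on. No label gives a batch.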

Additional observations from a re-analysis of the deposited data

Results flagged for a closer look

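In 4 of the 40 sets of 4 libraries (10 enzymes in 4 groups), the highest or lowest library lay far from the other 3 by Dixon's criterion, where chance alone gives about 2. *Cyp7b1* was at 336 CPM in HFD/FGFR4 KD 1, and the other 3 libraries had 48.15 to 71.3 CPM. *Cyp39a1* was at 34.7 CPM in HFD/FGFR4 KD 3, and the others had 16.7 to 17.1 CPM. *Akr1d1* was at 136 CPM in Chow/FGFR4 KD 3, above 103 to 108 CPM in the others. *Hsd3b7* was at 260.4 CPM in Chow/FGFR4 KD 4, below 339.5 to 352 CPM in the others.

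The effect of KD on *Cyp7a1* differed between the diets by 3.01 on the log2 scale (limma-voom interaction, adjusted p 0.0764), with the 4 KD libraries all higher on HFD.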

How the results depend on the processing

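The count of enzymes called with KD on HFD was 2 in limma-voom. It was 0 with edgeR's quasi-likelihood test, library totals alone, a replicate block, only the groups compared or an adjusted p under 0.05, and 3 with DESeq2, no filter or quality weights. Without 1 library it ran from 0 to 3, with 0 without HFD 1, HFD 3, HFD/FGFR4 KD 1, 3 or 4, 1 without HFD 4 and 3 without HFD 2 or HFD/FGFR4 KD 2. With HFD in saline-injected mice 6 enzymes were called, 3 under library totals alone (*Akr1d1* higher, *Cyp7b1* and *Cyp2c70* lower), 4 at an adjusted p under 0.05, and 6 to 7 without 1 library. With HFD in KD mice the count was 3, with 1 at an adjusted p under 0.05, and 2 to 4 without 1 library. KD on chow gave 0 in every fit, and the difference between the KD effects gave 0 apart from 3 with DESeq2. Genes called with KD on HFD numbered 356, and 114 with library totals, 222 with only the groups compared, 776 with quality weights and 31 at an adjusted p under 0.05. For the difference they numbered 4, and 62 with DESeq2, 7 with no filter or quality weights, 2 with the block, 1 at an adjusted p under 0.05 and 0 with library totals. With HFD in saline-injected mice they numbered 2939, and 5324 with no filter and 1042 at an adjusted p under 0.05, and with HFD in KD mice 2293 and 351 at an adjusted p under 0.05. With KD on chow they numbered 1, and 2 with DESeq2 or only the groups compared and 3 with library totals.

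*Slc27a5* and *Amacr*, called lower in HFD against Chow, changed sign under library totals alone, and no other called value changed sign in any fit. Library totals alone shifted the median of all genes by 0.287 in HFD against Chow. Under it *Hsd3b7* was at 0.18, *Slc27a5* 0.048, *Amacr* 0.00015, *Acox2* 0.20, *Fgfr4* 0.072 and *Cyp7a1* 0.022 in that comparison, *Cyp27a1* at 0.068 and *Slc27a2* at 0.052 with HFD in KD mice, *Baat* at 0.029 with KD on chow, and *Nr1h4* at -0.068 and *Klb* at -0.0033 with KD on HFD. *Nr1h4* was at -0.0066 with no filter. *Cyp39a1* with KD on chow was at -0.0074 with edgeR and -0.023 with DESeq2. *Cyp8b1* in HFD against Chow was at -0.0015 with DESeq2, -0.0060 with the looser filter (at least 4 libraries with 1 CPM) and -0.0034 with only the groups compared. Without 1 library, KD on HFD ran from -0.014 to 0.59 for *Cyp2c70*, -0.11 to 0.29 for *Cyp39a1*, -0.066 to 0.29 for *Cyp8b1*, -0.0011 to 0.16 for *Klb* and -0.059 to 0.082 for *Nr1h4*. KD on chow ran from -0.20 to 0.024 for *Acox2*, -0.070 to 0.045 for *Baat*, -0.21 to 0.16 for *Cyp39a1*, -0.52 to 0.066 for *Cyp7b1* and -0.047 to 0.15 for *Hnf4a*. HFD in KD mice ran from -0.047 to 0.10 for *Hsd3b7* and -0.20 to 0.017 for *Slc27a2*, HFD against Chow from -0.12 to 0.081 for *Cyp8b1*, and the difference from -0.13 to 0.40 for *Cyp39a1* and -0.39 to 0.017 for *Fgfr4*. The cause was not tested.

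Nothing in the labels pairs equal replicate numbers. Deviations of 24 same-numbered pairs correlated from -0.297 to 0.244, with a mean of -0.004, and the mean over the 72 other pairs was 0.002. Of 16 libraries 4 correlated best with their own number. With the replicate block, KD on HFD called 259 genes and 0 of the 10 enzymes. Depth limited *Cyp39a1* most, with 36 to 209 counts per library.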

Other observations

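Libraries differed in how many of the 10 enzymes they held at the low or high end of their group. HFD 3 was the lowest of its 4 libraries for 7 of the 10 enzymes and the highest for none. HFD 2 was the highest for 7. In HFD/FGFR4 KD, library 2 was the lowest for 6 and library 1 the highest for 5. In Chow, library 3 was the highest for 6 of the 10, yet the lowest for *Cyp7b1* and *Cyp2c70*, at 169.6 and 252 CPM, and it also had the lowest summed level of the 9 male-biased genes in its group, 5779 CPM.

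The counts of *Akr1d1* for each count of *Hsd3b7*, the other enzyme of the steroid ring, had medians of 0.347 in Chow, 0.3515 in Chow/FGFR4 KD, 0.403 in HFD and 0.577 in HFD/FGFR4 KD. The ranges of HFD (0.362 to 0.520) and HFD/FGFR4 KD (0.516 to 0.696) overlapped slightly.

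A list of 9 genes that are higher in female than in male mouse liver had no member that passed the filter, with a summed level of 4.10 to 7.66 CPM in Chow, 1.48 to 7.94 CPM in Chow/FGFR4 KD, 45.9 to 334 CPM in HFD and 0.715 to 60.4 CPM in HFD/FGFR4 KD. The 5 *Arntl*-group clock genes that fell with HFD had 3 members called higher with KD on HFD and none lower. Of all genes 1.5% were called higher and 1.64% lower there. The same HFD libraries enter both comparisons, so low values in them favour a fall in the first and a rise in the second.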
